A study of Mus musculus and Sus scrofa with 30 samples.

Results

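The genes described are Acta2, Tagln, Cnn1, Myl9, Tpm1, Tpm2, Actg2, Ccn1, Ccn2 and Ankrd1, 10 genes chosen by symbol, ignoring case, from the 24843 genes of a mouse table and the 34307 genes of a pig table. All 10 were listed once in each table. In both systems the cells were induced to form fat cells and bulk RNA was sequenced on day 5, with 3 libraries in each of 5 groups per system, 30 libraries in all. The mouse cells were 3T3-L1, an embryonic fibroblast line that can become adipocytes. The pig cells were dedifferentiated fat (DFAT) cells from subcutaneous fat, which have lost their lipid and returned to a fibroblast-like state. The groups received DMSO vehicle, dicoumarol (an anticoagulant of the coumarin class), magnolol (a plant lignan from magnolia), both of these together (called the combination here), or rosiglitazone (an agonist of the adipogenic receptor PPARγ). All 3T3-L1 groups, vehicle included, were induced in 10% serum with insulin (0.75 µg/mL), dexamethasone (75 nM) and the phosphodiesterase inhibitor IBMX (37.5 µM). All DFAT groups shared 2% serum, dexamethasone (0.5 µM), IBMX (12.5 µM), biotin (20 µM) and pantothenate (10 µM). The sources used here do not give the doses of the 4 treatments or say whether the replicates were separate cultures, so p-values measure only the spread between these libraries.

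Serum response factor (SRF) with its actin-sensing coactivators MRTF, and the coactivators YAP and TAZ with TEAD factors, both read the tension of the actin cytoskeleton. SRF binds the CArG box and drives actin, tropomyosin and other contractile genes. YAP with TEAD drives Ccn1, Ccn2 and Ankrd1, which are used as readouts of YAP activity. These target sets are not exclusive. In preadipocytes stress fibres are dismantled as the cells round up, and high SRF and YAP activity is known to hold back fat cell formation.

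Of the 10 genes, 7 encode parts of the contractile apparatus. Acta2 is smooth muscle α-actin and Actg2 is smooth muscle γ-actin. Tagln (transgelin) and Cnn1 (calponin) bind actin filaments, Myl9 is the regulatory light chain of non-sarcomeric myosin, and Tpm1 and Tpm2 are tropomyosins that coat the filament. The other 3 are the YAP targets: Ccn1 and Ccn2 encode secreted matricellular proteins, formerly CYR61 and CTGF, and Ankrd1 encodes an ankyrin-repeat protein of the nucleus and sarcomere.

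RefSeq promoter windows of the mouse build GRCm38.p6, 250 bases before to 50 after the start site, were at hand for 7 of the 10 genes, namely Acta2, Cnn1, Myl9, Tpm1, Tpm2, Ccn1 and Ankrd1. They were searched on both strands for the CArG box, written as CC, 6 bases that are each A or T, then GG, for the same box with 1 G or C allowed among the central 6, and for the TEAD-type motif GGAATG, which reads CATTCC on the other strand. The looser box includes the exact one. An exact CArG box was found in 1 of the 7 windows and in 1.63% of all 32851 windows of 300 bases, the looser box in 2 of the 7 and in 9.98% of all, and the TEAD-type motif in 4 of the 7 and in 14.7% of all. The 250 upstream bases of the 4 genes below are shown because Acta2 and Myl9 held the CArG-type matches and Tpm1 and Ankrd1 are the tropomyosin and the YAP target with a TEAD-type match that the results below turn on. Capitals mark the matches, and each is written 5′ to 3′ on the gene's strand. The windows lie at chr19:34255374-34255623 (minus strand) for Acta2, chr2:156775214-156775463 (plus strand) for Myl9, chr9:67049214-67049463 (minus strand) for Tpm1 and chr19:36119845-36120094 (minus strand) for Ankrd1.
Acta2: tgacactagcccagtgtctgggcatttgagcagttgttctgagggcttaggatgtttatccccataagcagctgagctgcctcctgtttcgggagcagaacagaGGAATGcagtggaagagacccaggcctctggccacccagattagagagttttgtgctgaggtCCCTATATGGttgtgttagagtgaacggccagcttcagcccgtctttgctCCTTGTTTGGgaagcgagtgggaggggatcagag
Myl9: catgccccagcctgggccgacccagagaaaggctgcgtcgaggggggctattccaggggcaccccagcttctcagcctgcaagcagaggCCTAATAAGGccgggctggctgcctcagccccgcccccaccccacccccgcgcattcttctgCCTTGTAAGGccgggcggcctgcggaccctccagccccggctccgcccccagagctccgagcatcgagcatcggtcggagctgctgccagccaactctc
Tpm1: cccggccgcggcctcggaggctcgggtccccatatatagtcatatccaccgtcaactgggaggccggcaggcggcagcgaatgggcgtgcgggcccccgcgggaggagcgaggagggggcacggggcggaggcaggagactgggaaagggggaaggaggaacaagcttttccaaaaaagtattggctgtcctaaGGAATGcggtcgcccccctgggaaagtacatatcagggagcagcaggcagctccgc
Ankrd1: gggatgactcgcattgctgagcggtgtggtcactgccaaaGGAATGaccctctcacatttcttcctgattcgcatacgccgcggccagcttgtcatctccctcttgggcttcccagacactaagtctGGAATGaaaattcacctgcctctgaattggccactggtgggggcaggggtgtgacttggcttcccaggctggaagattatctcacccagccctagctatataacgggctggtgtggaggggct
Acta2 carried CArG-like boxes from −84 to −75 and from −34 to −25 of the start site and a TEAD-type match from −146 to −141. Myl9 carried an exact CArG box from −161 to −152 and a CArG-like box from −99 to −90, Tpm1 a TEAD-type match from −56 to −51, and Ankrd1 TEAD-type matches from −210 to −205 and from −123 to −118. The remaining TEAD-type match was in Ccn1, from −103 to −98, and neither motif was found in the windows of Cnn1 and Tpm2. A match is a description of the letters and not a measured binding site.

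Values are normalized counts, which the authors obtained by dividing each gene's count by its library's DESeq2 size factor. Estimated library depth was 22.8 to 30.7 M reads for 3T3-L1 and 44.8 to 70.5 M reads for DFAT, M standing for 1000000. The mitochondrial share was 5.22% to 14.3% over the 3T3-L1 libraries and 6.85% to 15.1% over the DFAT libraries. In 3T3-L1, 2 of the 3 rosiglitazone libraries stood apart, with mitochondrial shares of 14.3% and 11.6% in replicates 1 and 3, against 7.72% at most in the other groups. In DFAT every dicoumarol, magnolol and combination library (10.5% to 15.1%) was above every vehicle library (9.58% to 10.2%), and rosiglitazone replicate 2 was the lowest of the 15, at 6.85%. The part of this share in the results below was not tested. Adipocyte markers had risen in both systems: all 12 of 12 were called higher with rosiglitazone in each, and with the combination 12 of 12 in 3T3-L1 and 11 of 12 in DFAT. Of all tested genes in DFAT, 5.8% were called higher with rosiglitazone and 6.11% with the combination. The shares called higher in 3T3-L1 are not given here. Their summed level in 3T3-L1 was 47070 to 66039 normalized counts with vehicle and 341728 to 593793 with rosiglitazone, and in DFAT it was 24995 to 26901 and 90753 to 97895.

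Each of the 10 genes was at a higher level in every DFAT library than in every 3T3-L1 library. Scaled to 1000000 normalized counts per library, Tagln was at 0.913 to 4.61 over the 15 3T3-L1 libraries and at 832 to 1280 over the 15 DFAT libraries. For Ccn2 the corresponding ranges were 0.406 to 2.67 and 318 to 731, for Actg2 1.54 to 5.46 and 145 to 466, and for Cnn1 0.0793 to 0.482 and 10.9 to 39.3. The levels lay closest for Ccn1, at 86.3 to 174 and 184 to 399, and Ankrd1, at 0.223 to 0.625 and 0.922 to 3.03. The tables hold different species and were normalized separately, so these levels are set side by side without a test. Ankrd1 was the lowest of the 10 in read support in DFAT, with a mean of 104 normalized counts, and in 3T3-L1 Cnn1 had a mean of 7.35, Ankrd1 of 11.3 and Ccn2 of 35.3. Genes with a mean of at least 10 were tested, 15723 in 3T3-L1 and 14819 in DFAT, which took in 9 of the 10 genes in 3T3-L1 (all but Cnn1) and all 10 in DFAT.

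Each treatment was tested with limma on log2(normalized count + 1), with the p-values adjusted over all tested genes by the Benjamini-Hochberg method, and a gene was called where the adjusted p was under 0.05. Fold changes are on that log2 scale with their standard error (SE). The groups had 3 libraries each. The 4 comparisons with vehicle share the vehicle libraries. In bulk RNA fewer cells of a type and less RNA per cell cannot be told apart.

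In 3T3-L1 the called changes against vehicle were decreases of contractile genes. Of the 9 genes tested, 2 were called lower with the combination (Acta2 and Tpm1) and 4 with rosiglitazone (Acta2, Tagln, Myl9 and Tpm1), and none was called higher with any treatment. Of all tested genes, 1.36% were called lower with the combination and 19.9% with rosiglitazone, so the share of the 9 genes with rosiglitazone is to be read against a broad background. The median log2 fold change of the 9 genes was −0.35 for dicoumarol, −0.33 for magnolol, −0.72 for the combination and −0.90 for rosiglitazone, where the median of all tested genes lay between −0.009 and 0.001. All 9 lay below 0 with the combination and with rosiglitazone, and 8 of 9 with each single compound.

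Acta2 was at 5383, 4354 and 2756 normalized counts in the 3 vehicle libraries of 3T3-L1. It was at 3284, 2681 and 2268 with dicoumarol, at 3487, 3673 and 1865 with magnolol, at 2078, 2243 and 1508 with the combination and at 1977, 2402 and 1239 with rosiglitazone. Every library of the last 2 groups was below every vehicle library, whereas the single compounds overlapped with vehicle. The fold change was −1.07 (SE 0.29, adjusted p = 0.0425 by limma) with the combination and −1.15 (SE 0.29, adjusted p = 0.00484 by limma) with rosiglitazone. The combination call was lost when combination replicate 1, 2 or 3 or vehicle replicate 1 or 2 was left out, with adjusted p = 0.0546 to 0.165 and fold changes of −0.85 to −1.18 for Acta2. It was also lost with no filter on low genes (0.0535) and with no variance trend (0.0948).

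Of the 9 genes, Tpm1 had the smallest p-value in 3T3-L1 with each treatment. The vehicle libraries held 6068, 6574 and 5013 normalized counts, those with the combination 3148, 3907 and 3292, and those with rosiglitazone 2974, 3230 and 2835. Neither treated group overlapped with vehicle. Tpm1 fell to 0.587 of vehicle with the combination (log2 fold change −0.77, SE 0.13, adjusted p = 0.00237 by limma) and to 0.515 with rosiglitazone (−0.96, SE 0.13, adjusted p = 3.1e-05 by limma). The single compounds lay between, at 4609 ± 476 (SD, n = 3) with dicoumarol and 4329 ± 702 with magnolol, and were not called. Tpm2, the other tropomyosin, was at 1228 ± 84.5 with vehicle, 909 ± 107 with the combination and 1049 ± 129 with rosiglitazone, groups that did not overlap with vehicle but were not called (adjusted p = 0.0643 and 0.168 by limma).

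Myl9 held 569, 461 and 251 normalized counts with vehicle, 197, 248 and 123 with the combination and 163, 258 and 87.7 with rosiglitazone. The combination libraries were all below the vehicle libraries, but the gene was called only with rosiglitazone among the 4 treatments (log2 fold change −1.38, SE 0.43, adjusted p = 0.0172 by limma), where the highest treated library was above the lowest vehicle library. Tagln was at 123, 80.5 and 49.3 with vehicle and at 58.1, 52.9 and 25.7 with rosiglitazone, groups that also overlapped (−0.86, SE 0.32, adjusted p = 0.0435 by limma). Both calls were lost without rosiglitazone replicate 3 (Myl9 adjusted p = 0.091, Tagln 0.216), without vehicle replicate 1 (0.0735 and 0.208) or without vehicle replicate 2 (0.0592 and 0.0983). With any 1 of these 3 libraries left out, 2 of the 9 genes were called, both lower. In these runs 36.1%, 36.9% and 31.8% of all tested genes were called in either direction. The Tagln call was also lost with no filter on low genes (0.0644), with no variance trend (0.0567) and with only the groups compared in the fit (0.117). Actg2, at 114 ± 45.7 with vehicle, was at 59.1 ± 20.8 with rosiglitazone (adjusted p = 0.0963 by limma).

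Of the YAP targets, Ccn1 was at 3505 ± 948 (SD, n = 3) normalized counts with vehicle in 3T3-L1 and between 2950 ± 889 (rosiglitazone) and 3710 ± 1003 (dicoumarol) with the treatments, so its groups overlapped throughout. Ccn2 held 62.2, 70.2 and 24.4 with vehicle and 23.1, 20.7 and 18.5 with rosiglitazone, a fold change of −1.16 with a wide SE of 0.57 (adjusted p = 0.119 by limma). Ankrd1 held 13.4, 11.1 and 12.8 with vehicle and 8.39, 7.61 and 9.88 with rosiglitazone (−0.48, SE 0.38, adjusted p = 0.331 by limma). In both genes every rosiglitazone library was below every vehicle library, yet neither was called. Cnn1, not tested, had 8.46 ± 1.97 with vehicle and 4.06 ± 2.08 with rosiglitazone.

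**Figure D1:**
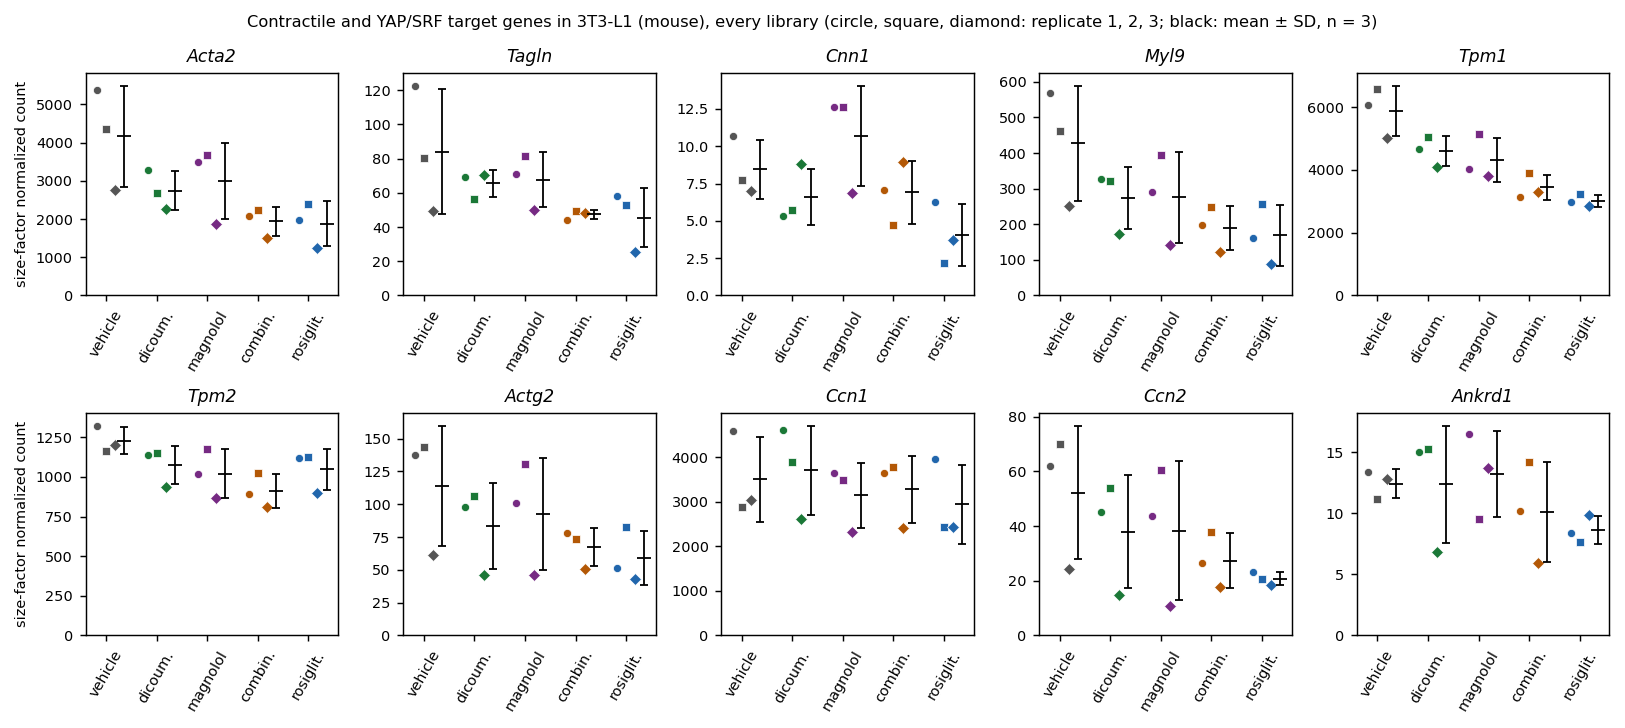
Normalized counts (vertical axis, from 0) of the 10 genes in the 15 3T3-L1 libraries by treatment; symbols give the replicate number, and the black bar is the mean ± SD of 3 libraries. Tpm1 and Acta2 lie lower with the combination and with rosiglitazone than in every vehicle library, while Ccn1 overlaps across all groups.

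The spread within the 3T3-L1 groups followed the replicate number. Replicate 3 was the lowest library in 5 of 5 groups for Acta2, Myl9, Actg2 and Ccn2, and the replicate numbers paired the 3T3-L1 libraries over all genes. With the replicate number as a block, limma called 1 gene lower with dicoumarol (Tpm1, adjusted p = 0.044), 3 with magnolol (Acta2 0.0325, Myl9 0.0172, Tpm1 0.00141), 5 with the combination (Acta2, Myl9, Tpm1, Tpm2 and Actg2, 2.42e-05, 0.000108, 3.19e-06, 0.00266 and 0.0291) and 7 with rosiglitazone (all but Ccn1 and Ankrd1). The corresponding shares of all tested genes were 0.0445%, 1.44%, 5.48% and 25.4%. Without the block none of the 9 was called with dicoumarol or magnolol by limma, beside 0% and 0.153% of all tested genes called lower. At an unadjusted p under 0.05 the count was 1 of 9 (Tpm1) with each of these compounds. The share of all tested genes at that unadjusted threshold is not given here. By the raw libraries, 1, 0, 4 and 5 of the 9 genes lay wholly below vehicle for dicoumarol, magnolol, the combination and rosiglitazone respectively, beside 2.68%, 6.86%, 9.44% and 22.1% of all tested genes.

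In the pig cells all called changes of the 10 genes against vehicle were increases. Of the 10 genes, 1 was called higher with dicoumarol (Cnn1), 6 with magnolol (Acta2, Cnn1, Tpm1, Tpm2, Actg2 and Ankrd1), 8 with the combination (all but Ccn1 and Ccn2) and 6 with rosiglitazone (Acta2, Tpm1, Tpm2, Actg2, Ccn2 and Ankrd1), and none was called lower. The shares of all tested genes called higher were 0.911%, 2.96%, 6.11% and 5.8%. All 10 fold changes were above 0 in each of the 4 comparisons, with medians of 0.13, 0.55, 0.64 and 0.49, where the median of all tested genes lay between −0.01 and 0. The groups did not overlap for 2, 8, 8 and 5 of the 10 genes, beside 9.8%, 10.9%, 14.2% and 10.5% of all tested genes. With the replicate number as a block, limma called 2, 10, 10 and 9 of the 10 genes, all higher. Of all tested genes, 4.52%, 9.18%, 17.8% and 16% were called in either direction with the block. Over all genes the numbers pair only some of the DFAT groups, and vehicle with none. Rescaling the libraries to equal totals moved the median of all genes to −0.145 with magnolol and −0.174 with the combination, and 6 and 6 of the 10 genes were then called, all higher. Of all tested genes, 17.4% and 30.6% were then called in either direction, 313 and 540 genes of them higher.

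Cnn1 had the largest fold change of the 10 genes with the combination in DFAT. Its normalized counts were 647, 801 and 882 with vehicle, 1096, 1363 and 1365 with dicoumarol, 1518, 1984 and 1858 with magnolol, 1948, 2466 and 2386 with the combination and 739, 1358 and 898 with rosiglitazone. The first 3 treated groups lay wholly above vehicle, and the rosiglitazone libraries overlapped with it. The log2 fold changes were 0.72 (SE 0.18, adjusted p = 0.0431), 1.20 (0.18, 0.000424), 1.55 (0.18, 1.15e-05) and 0.33 (0.18, 0.305) by limma. The dicoumarol call was lost without any 1 of the 6 libraries compared, with adjusted p = 0.0536 to 0.234, so that the count of 1 became 0, and likewise with no filter (0.175), equal library totals (0.0887) and no variance trend (0.153). Cnn1 was thus 2.92-fold of vehicle with the combination.

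Actg2 followed a similar order, except with rosiglitazone. It held 8607, 8948 and 10357 normalized counts with vehicle, 11168, 13564 and 13263 with dicoumarol, 16354, 18767 and 19303 with magnolol, 19803, 22786 and 23283 with the combination and 14108, 26517 and 17700 with rosiglitazone. All 4 treated groups lay above vehicle. The fold changes were 0.44 (SE 0.16, adjusted p = 0.239), 0.96 (0.16, 0.00109), 1.24 (0.16, 3.81e-05) and 1.02 (0.16, 0.000244) by limma.

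Acta2 in DFAT was at 55633, 55159 and 70716 with vehicle, 63640, 70832 and 75490 with dicoumarol, 88398, 94953 and 92836 with magnolol, 100898, 113250 and 114025 with the combination and 78526, 127515 and 97458 with rosiglitazone. The magnolol, combination and rosiglitazone libraries were all above the vehicle libraries, and those with dicoumarol overlapped with them. The fold changes for these 3 groups were 0.61 (SE 0.14, adjusted p = 0.0126), 0.86 (0.14, 0.000347) and 0.72 (0.14, 0.0015) by limma. The magnolol call for Acta2 was lost without vehicle replicate 1 (adjusted p = 0.0736) or 2 (0.0558) and with quantile normalization (fold change 0.41, adjusted p = 0.161). Without vehicle replicate 1 the calls for Tpm1 and Tpm2 with magnolol were lost too (0.0704 and 0.0734), leaving 3 of 10. The Tpm1 call was also lost without magnolol replicate 3 (0.0592), and the Tpm2 call without magnolol replicate 1 (0.0572) or 3 (0.0537) or vehicle replicate 2 (0.0605). With no filter on low genes the calls of Acta2 (0.0629), Tpm1 (0.0524) and Tpm2 (0.0524) with magnolol were lost.

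Both tropomyosins rose in DFAT with each treatment but dicoumarol. Tpm1 went from 39867 ± 5163 normalized counts (SD, n = 3) in the vehicle group to 59136 ± 4959 (magnolol), 64730 ± 6962 (combination) and 54613 ± 9890 (rosiglitazone), at fold changes of 0.57, 0.70 and 0.45 (adjusted p = 0.01, 0.000965 and 0.0254 by limma). The rosiglitazone call for Tpm1 was lost without rosiglitazone replicate 2 (adjusted p = 0.0964) or 3 (0.0832) or without vehicle replicate 1 (0.126) or 2 (0.0944), and with no filter (0.0877), no variance trend (0.0666) or only the groups compared (0.078). Tpm2 was at 15375 ± 1356 with vehicle and at 20218 ± 519, 20371 ± 1122 and 20603 ± 3082 with these 3 treatments, at fold changes of 0.40, 0.41 and 0.41 (adjusted p = 0.0137, 0.00601 and 0.00451 by limma). With dicoumarol neither differed beyond the spread, at 43072 ± 3615 and 15465 ± 565.

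Without the block, Myl9 and Tagln were called with the combination alone among the 4 treatments in DFAT. With the replicate block, limma also called Myl9 with magnolol (adjusted p = 0.0409) and rosiglitazone (0.0321), and Tagln with magnolol (0.0245). Myl9 was at 15368 ± 826 (SD, n = 3) with vehicle and 22970 ± 1798 with the combination (0.58, SE 0.15, adjusted p = 0.0173 by limma), and Tagln at 49759 ± 2487 and 66924 ± 3975 (0.43, SE 0.10, adjusted p = 0.0114 by limma). In both genes the combination libraries were all above the vehicle libraries. Without combination replicate 2 both calls were lost (Myl9 adjusted p = 0.0676, Tagln 0.0536), and that of Myl9 also without vehicle replicate 1 or 2 (0.0657 and 0.0519). Equal library totals ended both calls (Myl9 0.0574, Tagln 0.0906), no filter (0.0703) or no variance trend (0.0597) that of Myl9, and quantile normalization (0.0571) that of Tagln. With rosiglitazone the 2 genes split by library: Myl9 held 15397, 28044 and 18529 and Tagln 51182, 72813 and 53917, and replicate 2, the library with the lowest mitochondrial share, was the highest of the 15 DFAT libraries in both.

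The 3 YAP targets differed among themselves in DFAT. Ankrd1 held 61.7, 58.8 and 62.1 normalized counts with vehicle, 70.2, 55.7 and 74.7 with dicoumarol, 152, 135 and 136 with magnolol, 91.2, 108 and 101 with the combination and 132, 150 and 178 with rosiglitazone. The last 3 groups lay above vehicle, and those with magnolol and with rosiglitazone also lay above every combination library. Its fold changes were 1.19 (magnolol, SE 0.15, adjusted p = 8.15e-05), 0.70 (combination, 0.15, 0.0052) and 1.31 (rosiglitazone, 0.15, 9.64e-06) by limma. Ankrd1 was therefore lower with the combination than with magnolol alone, by −0.49 (SE 0.15), a difference that was not called (adjusted p = 0.26 by limma).

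Ccn2 was at 23205, 18074 and 28083 normalized counts with vehicle, 33259, 27948 and 37939 with magnolol, 31512, 27737 and 35338 with the combination and 38879, 32739 and 42985 with rosiglitazone. The rosiglitazone libraries alone lay wholly above vehicle, and the gene was called with rosiglitazone (0.74, SE 0.16, adjusted p = 0.00434 by limma) but not with magnolol (0.53, 0.0735) or the combination (0.46, 0.0749). Ccn1 was at 13653 ± 3584 with vehicle, 18144 ± 3392 in the magnolol group, 19270 ± 2612 in the combination group and 19496 ± 3650 in the rosiglitazone group. Its fold changes of 0.43 to 0.53 were not called without the block (adjusted p = 0.0839 to 0.249 by limma). With the replicate number as a block, Ccn1 was called higher with magnolol (adjusted p = 0.000422 by limma), the combination (2.99e-05) and rosiglitazone (2.14e-05). Ccn2 was called with the block with magnolol (7.61e-06) and the combination (1.46e-05) too. For Ccn1 and Ccn2 replicate 2 was the lowest library in 5 of 5 groups, and for Cnn1, Myl9, Tpm1 and Actg2 replicate 1 was.

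**Figure D2:**
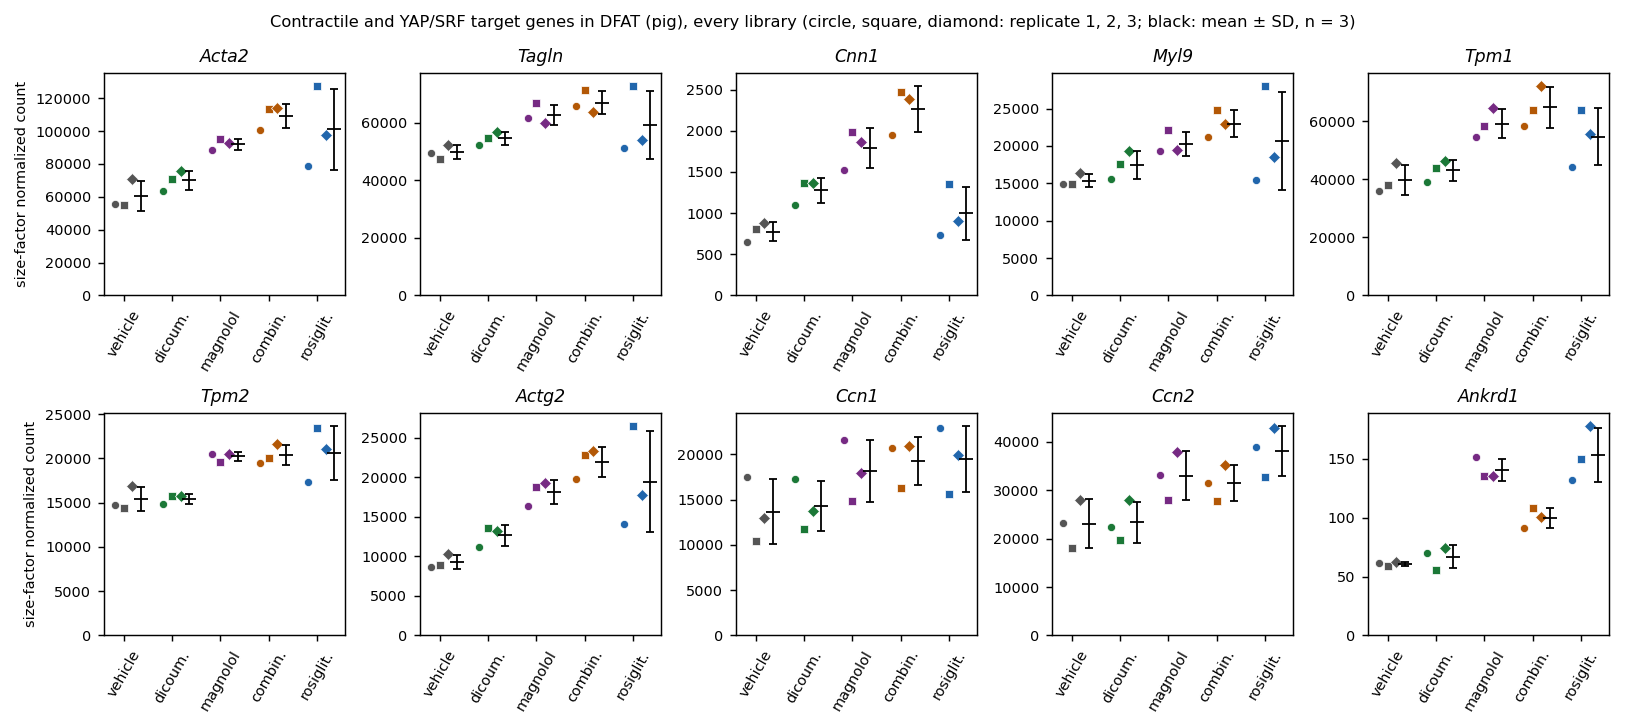
Normalized counts (vertical axis, from 0) of the 10 genes in the 15 DFAT libraries by treatment; symbols give the replicate number, and the black bar is the mean ± SD of 3 libraries. Cnn1 and Actg2 step up from vehicle through dicoumarol and magnolol to the combination, Ankrd1 is highest with magnolol and rosiglitazone, and the rosiglitazone libraries spread widely in the contractile genes.

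The group means were put in order for each gene. In 3T3-L1, Acta2, Tagln, Myl9 and Actg2, together with the YAP target Ccn2, ran from rosiglitazone (lowest) through the combination, dicoumarol and magnolol to vehicle (highest). Most neighbours in these orders overlapped: of the 4 neighbouring pairs, 3 overlapped for Acta2 and Tagln, whose combination and dicoumarol libraries were apart, and 4 for Myl9, Actg2 and Ccn2. The other contractile genes had other orders: magnolol lay below dicoumarol for Tpm1, the combination and magnolol lay below rosiglitazone for Tpm2, and magnolol was above vehicle for Cnn1. In DFAT vehicle was the lowest mean for all 10 genes and dicoumarol the next for 9 of the 10, Cnn1 being the exception. The combination had the highest mean for Acta2, Tagln, Cnn1, Myl9, Tpm1 and Actg2, and rosiglitazone for Tpm2, Ccn1, Ccn2 and Ankrd1.

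Comparisons between treatments were fewer in calls. In DFAT the combination was above dicoumarol for 5 of 10 genes, Actg2 (0.80, SE 0.16, adjusted p = 0.00891 by limma), Acta2 (0.65, 0.0142), Tpm1 (0.59, 0.0143), Cnn1 (0.83, 0.0147) and Tpm2 (0.40, 0.0219), beside 2.35% of all tested genes called in either direction. The count fell to 0 without dicoumarol replicate 1, to 1 without combination replicate 3, to 2 without combination replicate 2 and to 3 without dicoumarol replicate 2. Magnolol was above dicoumarol for Ankrd1 (1.07, SE 0.15, adjusted p = 0.000707) and Tpm2 (0.39, SE 0.09, adjusted p = 0.0342 by limma), beside 1.57% of all tested genes. The Tpm2 call was lost without any 1 of the 6 libraries compared (adjusted p = 0.0725 to 0.18).

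Adding dicoumarol to magnolol gave no called difference. The fold changes of the combination against magnolol in DFAT ran from −0.49 (Ankrd1) to 0.34 (Cnn1). By limma 0 of the 10 genes were called, beside 0.621% of all tested genes, and 1 of the 10 had an unadjusted p under 0.05. The 95% interval of the difference was −0.81 to −0.17 for Ankrd1, −0.03 to 0.72 for Cnn1 and −0.18 to 0.20 for Tpm2. The interaction of the 2 compounds was called for 0 of 10 genes in DFAT, beside 0.081% of all tested genes. At an unadjusted p under 0.05 the count was 1 of 10 (Ankrd1, −0.61, SE 0.21, adjusted p = 0.833 by limma).

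Rosiglitazone and the combination differed in DFAT for Cnn1 and Ankrd1, in opposite directions. Cnn1 was lower with rosiglitazone (−1.22, SE 0.18, adjusted p = 0.000103 by limma), the 3 rosiglitazone libraries all lying below the 3 combination libraries, and Ankrd1 was higher (0.60, SE 0.15, adjusted p = 0.00987 by limma). These were 2 of 10 genes, beside 17% of all tested genes in either direction. The replicate numbers paired these libraries, and with the block 4 were called, Tpm1 (−0.26, adjusted p = 0.0223) and Ccn2 (0.27, adjusted p = 0.00154) being added, beside 24.9% of all tested genes. The rosiglitazone group held a library apart: without its replicate 2, 6 genes were called, with Tagln (−0.35, adjusted p = 0.00379), Myl9 (−0.44, 0.00538), Actg2 (−0.47, 0.00887) and Tpm1 (−0.38, 0.0444) lower as well, beside 15.2% of all tested genes. Without its replicate 3 the Ankrd1 call was lost (0.49, adjusted p = 0.0571).

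In 3T3-L1 none of the 9 tested genes was called between treatments by limma. For the combination against dicoumarol 0.0254% of all tested genes were called. Of the 9 genes, 1 had an unadjusted p under 0.05 there (Tpm1, −0.42, SE 0.13, adjusted p = 0.271 by limma). With the replicate block, Tpm1 (adjusted p = 0.00381) and Acta2 (0.0322) were called lower with the combination than with dicoumarol, beside 3.62% of all tested genes in either direction. Of all tested genes, 18.3% were called for rosiglitazone against the combination. The share was 0% for the combination against magnolol, for magnolol against dicoumarol and for the interaction. At an unadjusted p under 0.05 by limma the counts were 0, 1, 0 and 0 of the 9 genes, in that order. Rosiglitazone and the combination differed for the 9 genes by −0.33 (Ccn2, SE 0.57) to 0.21 (Tpm2, SE 0.13).

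The difference between the systems was tested directly. For each gene the 3T3-L1 fold change was subtracted from that in DFAT, with p-values adjusted over the 9370 symbols tested in both tables. With rosiglitazone 9 of 9 genes differed, all higher in DFAT, beside 19.6% of all shared genes higher there. With the combination 6 of 9 did (Acta2, Tagln, Myl9, Tpm1, Tpm2 and Actg2, all contractile), beside 5.22%. With magnolol 2 did (Tpm1 and Tpm2), beside 1.44%, and with dicoumarol 0, beside 0.0854%. At an unadjusted p under 0.05 by the same limma fits, 2 of 9 differed with dicoumarol. For Acta2 the difference was 1.93 (SE 0.32, adjusted p = 0.000325 by limma fits of each table) with the combination and 1.87 (SE 0.32, adjusted p = 7.49e-05) with rosiglitazone. For Tpm1 it was 1.02 (SE 0.18) for magnolol, 1.47 for the combination and 1.4 for rosiglitazone, at adjusted p = 0.000898, 1.45e-06 and 2.83e-07 by limma. The YAP targets differed between systems with rosiglitazone, Ankrd1 by 1.79 (SE 0.41, adjusted p = 0.0016), Ccn2 by 1.90 (0.60, 0.0169) and Ccn1 by 0.79 (0.32, 0.049). With the combination their differences of 1.05, 1.30 and 0.61 were not called (adjusted p = 0.108, 0.184 and 0.235 by limma). With the replicate number as a block in each table, 4 of 9 genes differed with dicoumarol (Acta2, Myl9, Tpm1 and Actg2), 7 with magnolol (all but Tagln and Ankrd1), 8 with the combination (all but Ankrd1) and 9 with rosiglitazone, beside 0.811%, 4.71%, 9.98% and 26% of the shared genes higher in DFAT. For the combination Ccn1 (adjusted p = 0.00368) and Ccn2 (0.00852) were the 2 added by the block, and Ankrd1 was called with a pseudocount of 10 (0.81, adjusted p = 0.035). The numbers pair the 3T3-L1 groups but only some of the DFAT groups. The systems differ in species, cell source, medium and depth, which cannot be told apart here.

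**Figure D3:**
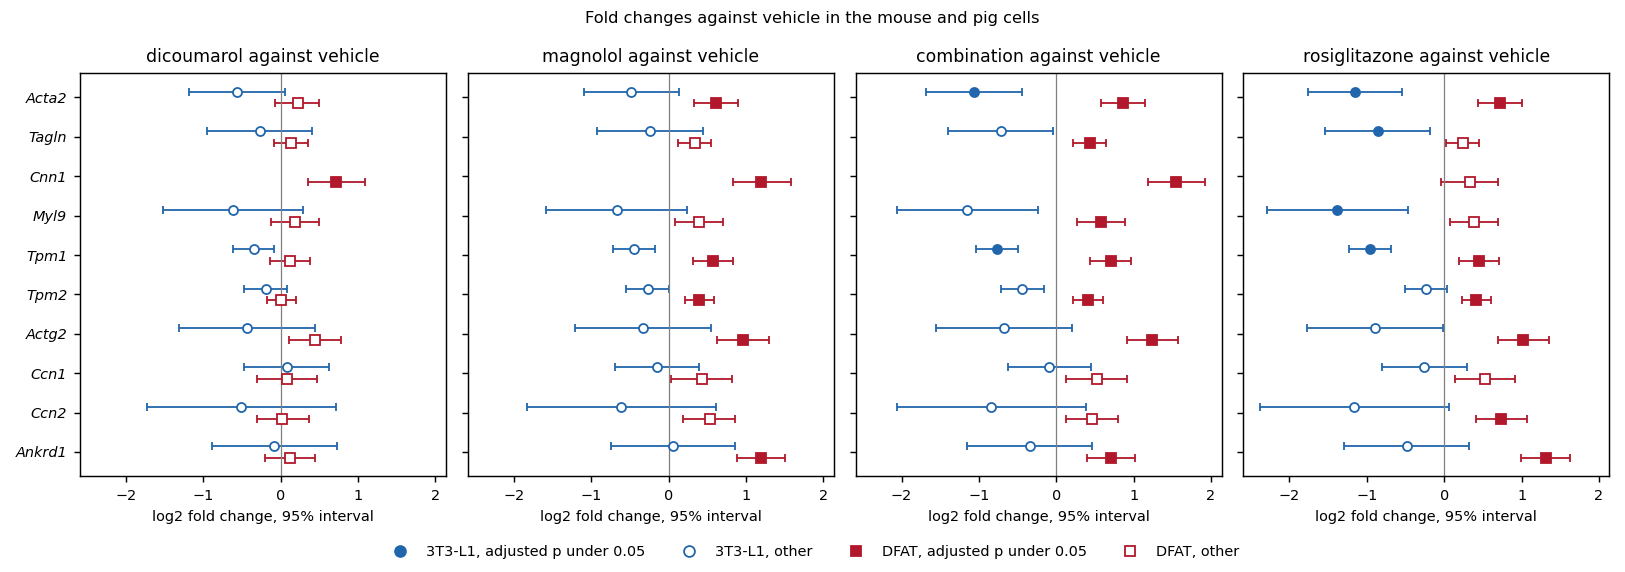
Log2 fold change against vehicle (horizontal axis) with its 95% interval for each gene in 3T3-L1 (blue circles) and DFAT (red squares), 1 panel per treatment; filled symbols have an adjusted p under 0.05, and Cnn1 was not tested in 3T3-L1. The blue points lie left of 0 and the red points right of 0 with the combination and with rosiglitazone, Acta2 for example at −1.07 and 0.86 with the combination.

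The other genes of the pathway were taken from 4 lists. At most 3 called genes per list, system and comparison with vehicle are named, those with the largest fold changes. A named gene may therefore have been called with further treatments that are not mentioned. Of the other contractile and stress-fibre genes, 26 were tested in 3T3-L1. With the combination 3 were called lower and 0 higher: Cnn2 (calponin 2, −0.80, SE 0.15, adjusted p = 0.00582 by limma), Cnn3 (calponin 3, −0.38) and Myl12a (a myosin light chain, −0.32). With rosiglitazone 13 were called lower and 2 higher, led by Cnn2 (−1.34) and the filamin Flna (−0.98) below and the smooth muscle myosin Myh11 (1.39, from 37.2 ± 11.2 to 97.3 ± 21.0 normalized counts) above. The list medians were −0.25 and −0.36, and 1.36% and 19.9% of all tested genes were called lower with the combination and with rosiglitazone. With dicoumarol and with magnolol 0 of the 26 were called by limma, and 0 and 6 had an unadjusted p under 0.05. With the replicate block 3 were called lower with magnolol, 8 lower and 1 higher with the combination, and 16 lower and 3 higher with rosiglitazone. The shares of all tested genes called lower with the block were 1.44%, 5.48% and 25.4%.

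In DFAT the same list held 25 tested genes, of which 1, 10, 15 and 4 were called higher across dicoumarol, magnolol, the combination and rosiglitazone, in that order, and 0, 1, 2 and 0 lower. Of all tested genes, 0.911%, 2.96%, 6.11% and 5.8% were called higher. The list medians were 0.14, 0.27, 0.36 and 0.14. Myh11 rose from 577 ± 16.7 normalized counts (SD, n = 3) to 944 ± 91.5, 1492 ± 256, 2021 ± 348 and 798 ± 145 (fold changes 0.71, 1.36, 1.79 and 0.45). The muscle intermediate filament gene Des rose with the combination (1.81, SE 0.38, adjusted p = 0.00463 by limma), the myosin light chain kinase Mylk with magnolol (0.75) and the combination (1.14), and the smooth muscle gene Smtn with magnolol (0.97) and rosiglitazone (0.68). With rosiglitazone the focal adhesion gene Vcl was also called (0.32).

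The other SRF/MRTF targets, which include immediate early genes, numbered 14 in 3T3-L1. With rosiglitazone 5 of the 14 were called lower, beside 19.9% of all tested genes. They were led by Svil (supervillin, −0.93), Fhl2 (−0.78) and Filip1l (−0.76). With the other treatments 0 were called by limma, and 0 had an unadjusted p under 0.05. With the replicate block 2 were called lower with magnolol and 3 with the combination, beside 1.44% and 5.48% of all tested genes. In DFAT 12 were tested. The integrin gene Itga5 rose with magnolol (0.70), the combination (0.64) and rosiglitazone (0.45), Svil rose with rosiglitazone (0.51), and the immediate early genes Fosb (−0.97) and Ier2 (−0.64) fell with the combination. No others of the 12 were called in DFAT by limma, and with dicoumarol, where none was, 1 had an unadjusted p under 0.05.

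The other YAP/TEAD targets did not move in 1 direction. In 3T3-L1 21 were tested, and with rosiglitazone 11 were called lower and 4 higher, beside 19.9% of all tested genes called lower. Those lower included Thbs1 (thrombospondin 1, −1.58) and Nuak2 (−1.36). Dlc1, which encodes a GTPase-activating protein, rose with the combination (0.67), and the Hippo kinase gene Lats2 fell (−0.48). Dlc1 alone was called with magnolol (0.56), and 0 with dicoumarol by limma, where 1 had an unadjusted p under 0.05. With the replicate block 1 was called lower and 2 higher with magnolol, 7 lower and 2 higher with the combination, and 14 lower and 5 higher with rosiglitazone. The shares of all tested genes called lower with the block were 1.44%, 5.48% and 25.4%. In DFAT the counts called higher of 21 were 2, 4, 7 and 6 with dicoumarol, magnolol, the combination and rosiglitazone, and those called lower 0, 1, 2 and 2. Of all tested genes, 0.911%, 2.96%, 6.11% and 5.8% were called higher. Nt5e, which encodes the ectonucleotidase CD73, rose with dicoumarol (0.67), magnolol (0.64) and the combination (1.11), and the receptor kinase gene Axl with dicoumarol (0.26) and magnolol (0.50). Thbs1 rose with the combination (0.70). Fjx1 fell with the combination (−0.66) and rose with rosiglitazone (0.57), where Ddah1 (0.84) and the low Edn1 (endothelin 1) rose too. Edn1 went from 17.1 ± 5.11 to 35.2 ± 5.55 normalized counts (1.04, SE 0.32, adjusted p = 0.0494 by limma).

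Of the regulators of SRF, YAP and actomyosin, 21 were tested in each system. In 3T3-L1 11 were called lower with rosiglitazone and 0 higher, beside 19.9% of all tested genes called lower. They were led by the TEAD cofactor Vgll3 (−1.44), the actomyosin kinase Rock2 (−1.0) and the SRF coactivator Mrtfa (−0.74). With dicoumarol, magnolol and the combination 0 were called by limma, with 0, 1 and 4 at an unadjusted p under 0.05. With the replicate block 4 were called lower with the combination, beside 5.48% of all tested genes. In DFAT Mrtfb was called lower with the combination (−0.37) and higher with rosiglitazone (0.40). Mrtfa rose with rosiglitazone (0.29), and with the combination Vgll4 rose (0.24) and the Hippo kinase Stk3 fell (−0.24). No regulator was called with dicoumarol or magnolol in DFAT by limma, with 3 and 5 at an unadjusted p under 0.05. The list medians lay between −0.04 and 0.02 in DFAT and at −0.28 with rosiglitazone in 3T3-L1.

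**Figure D4:**
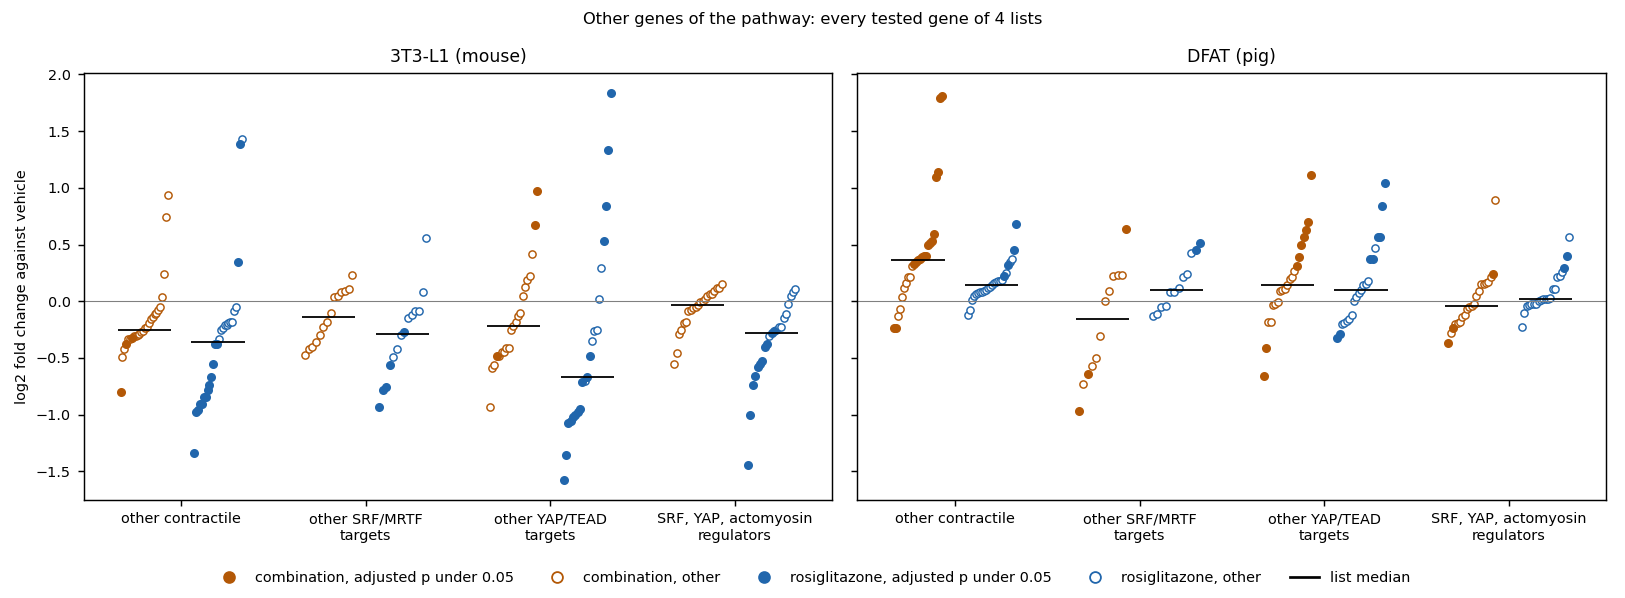
Log2 fold change against vehicle (vertical axis) of every tested gene of the 4 lists with the combination (brown) and with rosiglitazone (blue), in 3T3-L1 on the left and DFAT on the right; filled points have an adjusted p under 0.05 and black lines are list medians. The contractile list lies below 0 in 3T3-L1, with medians of −0.25 and −0.36, and above 0 in DFAT, with medians of 0.36 and 0.14.

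Markers of other cell types moved beside these genes. In 3T3-L1, 7 of 8 fibroblast and preadipocyte markers were called lower with rosiglitazone and 2 of 8 with the combination, beside 19.9% and 1.36% of all tested genes. Their summed level was 234660 to 258720 normalized counts with vehicle, 176730 to 208005 with the combination and 137257 to 178391 with rosiglitazone. Of the 6 tested of 8 smooth muscle and pericyte markers, 2 were called higher and 3 lower with rosiglitazone in 3T3-L1. Rgs5 and Cspg4, not tested there, reached 11.6 and 5.71 normalized counts at most. The highest library of the 6 tested markers was at 57.1 (Notch3) to 5606 (Pdgfrb). In DFAT, 2, 4, 6 and 2 of 8 such markers were called higher with dicoumarol, magnolol, the combination and rosiglitazone, beside 0.911%, 2.96%, 6.11% and 5.8% of all tested genes. Their sum was 60060 to 69146 with vehicle, 93275 to 95317 with the combination and 62943 to 73946 with rosiglitazone. Lmod1, Des and Myh11 stand in both this list and the contractile list. Of the 7 fibroblast and preadipocyte markers listed in DFAT, 5 were tested, 2 called higher and 3 lower with the combination, and 0 higher and 3 lower with rosiglitazone. The summed level of the 7 was 1617170 to 1758270 with vehicle, 2512090 to 2994410 with the combination and 1235030 to 1365900 with rosiglitazone. Col1a1 and Col3a1 made up most of the fibroblast and preadipocyte sums, with means over 15 libraries of 81384 and 83867 in 3T3-L1 and 1440860 and 622651 in DFAT. The part of these shifts in the results was not tested.

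Markers of striated muscle, endothelium and macrophages were low. In DFAT the muscle regulators Myod1 and Myog reached 2.01 and 3.16 normalized counts at most in any library, and their list summed to 3.12 to 20.6. In 3T3-L1, where 4 of these 8 were listed, the sum was 25.9 to 64.3. Endothelial Cdh5 reached 5.14 in 3T3-L1 and 1.96 in DFAT, and Kdr was at 0 in every DFAT library. Pecam1 made up most of the DFAT endothelial sum of 149 to 240. The macrophage list held 4 of 6 genes in each table. Its sums were 172 to 430 in 3T3-L1, where 2 were called lower with rosiglitazone, beside 19.9% of all tested genes. In DFAT the sums were 669 to 1036, mostly from Cd14, while Ptprc reached 0.981.

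Among themselves the contractile genes varied together. Over the 15 libraries of 3T3-L1 the Pearson correlation of log2 values was 0.64 to 0.97 over the 15 pairs of the 6 tested contractile genes, with a median of 0.83, and 0.49 to 0.70 over the 3 pairs of YAP targets. In DFAT it was 0.60 to 0.98 over 21 contractile pairs, with a median of 0.90, and 0.63 to 0.84 among the YAP targets. Pairs of 1 contractile gene and 1 YAP target had medians of 0.58 and 0.50. Acta2 and Myl9 were the most alike in 3T3-L1 (0.97) and Acta2 and Actg2 in DFAT (0.98). These correlations share libraries, treatments and size factors and are given as a description. Acta2 shared 0.326% of the 50-base stretches of its annotated mouse transcripts with another gene, the pseudogene Actg-ps1, and the other 9 genes shared none, Actg2 included.

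The genes outside the 10 whose pattern was most like theirs were ranked by mean Pearson correlation with the tested genes over the 15 libraries, among genes with a mean of at least 100. In 3T3-L1 these included Pla2g7 (0.79), Apobr (0.78), Cdsn (0.78) and Ezr (0.78), of 11612 ranked. In DFAT they were REM1 (0.82), SYNC (0.81), DAPK3 (0.81), CAVIN1 (0.81) and PTCHD1 (0.81), of 11343. No gene was among the 5 most alike in both.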

How the data were processed

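Bulk RNA-seq libraries were made from enriched mRNA with strand marking, per the labels' protocols. The deposited tables, 1 per species, hold signal values: per the labels and the file headers the authors scaled each library's gene counts by its DESeq2 size factor. The submitters' processing notes name bcl2fastq 2.19.1.403, STAR, DESeq2 and GRCm38 for all samples, pig included. Only 2.62% of 24070 matched mouse genes had the start of a GRCm38 annotation, so no coordinates of the tables are printed and the build of the counts is not settled. The counter is not given in the sources used here.

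Whole reads could not be recovered (81.6% to 82.7% of low values in 3T3-L1 and 89.8% to 91% in DFAT were whole within 0.02), so no count test was run. Genes with a mean of at least 10 entered 1 model per table, on log2(value + 1), with all 5 groups and a variance trend (limma 3.58.1, R 4.3.3), two-sided, with p-values adjusted over all tested genes and called under 0.05. Depth was estimated from the step between low values. Differences between systems used the summed squared standard errors and Welch-Satterthwaite degrees of freedom. The fit was tested on simulated data. Python 3.11.15 with pandas 2.3.3 and matplotlib 3.10.9 served for sequences and plots.

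In 3T3-L1 the deviations of same-numbered libraries from their group means correlated above 0.1 in all 10 pairs of groups (0.106 to 0.462), so values from a blocked fit stand beside the 3T3-L1 and between-system results against vehicle whose call they alter. In DFAT this held in 3 of 10 pairs of groups, those among magnolol, the combination and rosiglitazone. Blocked DFAT calls against vehicle are given as counts, and singly for Ccn1, Ccn2, Myl9 and Tagln. The labels do not say what a number marks.

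Named genes were all 10, the 3 largest called changes per list, table and comparison with vehicle, and the 5 most alike genes, except that some are not reported here. Cell type markers named singly were picked after their values were seen. The members and lists were chosen with earlier results of these data known. Alternatives were another pseudocount (10), no filter, 3 other scalings, no variance trend, the groups compared alone, the replicate block and leaving out each library.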

Additional observations from a re-analysis of the deposited data

Results flagged for a closer look

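Fold changes of the same treatment differed between the mouse and the pig cells for 19 pairs of gene and comparison, each by a test of the difference itself (limma fits of each table, p-values adjusted over the 9370 shared symbols). The values are DFAT minus 3T3-L1 on the log2 scale. With rosiglitazone they were 1.87 for Acta2, 1.09 for Tagln, 1.76 for Myl9, 1.4 for Tpm1, 0.65 for Tpm2, 1.92 for Actg2, 0.79 for Ccn1, 1.90 for Ccn2 and 1.79 for Ankrd1. With the combination they were 1.93 for Acta2, 1.15 for Tagln, 1.73 for Myl9, 1.47 for Tpm1, 0.85 for Tpm2 and 1.92 for Actg2. With magnolol they were 1.02 for Tpm1 and 0.67 for Tpm2, and for the combination against dicoumarol 1.00 for Tpm1 and 0.64 for Tpm2, the last at adjusted p = 0.05 as rounded and under the threshold before rounding. In 1 joint fit of both tables the Ccn1 difference with rosiglitazone (adjusted p = 0.0733) and the last Tpm2 difference (0.0654) were no longer called.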

How the results depend on the processing

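No called change of a gene reversed under any alternative run. The replicate block moved the count of genes called to 1 (dicoumarol), 3 (magnolol), 5 (combination), 7 (rosiglitazone) and 2 (combination against dicoumarol) in 3T3-L1. In DFAT, where the numbers pair only part of the groups, it moved it to 2 (dicoumarol), 10 (magnolol), 8 (combination against dicoumarol), 4 (rosiglitazone against the combination) and 8 (magnolol against dicoumarol). For differences between systems the block gave 4 (dicoumarol), 7 (magnolol), 6 (combination against dicoumarol), 1 (combination against magnolol) and 3 (magnolol against dicoumarol), and 1 joint fit gave 1 for the combination against dicoumarol. The block moved no other count by over 1.5 times.

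In 3T3-L1 with the combination the count was 1 with no filter or no variance trend. In DFAT it was 0 with dicoumarol with no filter, equal library totals or no variance trend and 2 with only the groups compared, and 3 with magnolol with no filter. For the combination against dicoumarol it was 0 with no filter, 3 with quantile normalization, 2 with equal totals and 1 with no trend. For rosiglitazone against the combination it was 1 with only the groups compared, and 3 (2 higher, 1 lower) with equal totals, which moved the median of all genes to 0.182. For magnolol against dicoumarol it was 1 with no filter, equal totals or no trend and 7 with only the groups compared.

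Leaving out 1 library at a time gave counts of 1 to 2 (combination) and 2 to 6 (rosiglitazone) in 3T3-L1. In DFAT it gave 0 in each case (dicoumarol), 3 to 7 (magnolol), 6 to 9 (combination), 5 to 7 (rosiglitazone), 0 to 5 (combination against dicoumarol), 1 to 6 (rosiglitazone against the combination) and 1 in each case (magnolol against dicoumarol). The cause of these shifts was not tested. Of the called values of single genes recomputed, 410 stayed under the threshold and 94 did not. The least abundant tested gene of the 10, Ankrd1 in 3T3-L1, had 5.96 to 16.5 normalized counts per library.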
